A study of Mus musculus with 12 samples.

Results

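Matrix metalloproteinases (MMPs), ADAMTS proteases and their inhibitors, the TIMPs, were examined in the lungs of mice exposed to ozone (O3). The genes were taken by symbol: every row of the normalized array table whose symbol begins with Mmp, Adamts or Timp followed by a digit, with 1 probe set per symbol, the one with the highest mean over the 12 arrays. This gave 46 of the 21759 genes of the table, of which 23 were MMPs, 19 were ADAMTS proteases and 4 were TIMPs, read by 73 of the 25254 probe sets that carry a symbol. Values are given for 43 of them. Mmp7, Mmp24 and Mmp28 were counted among the 46 and are named without a value, because the chosen probe set also matches another gene (Mmp24, Mmp28) or is assigned to another gene by the array annotation (Mmp7).

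Total RNA of left lungs was measured on Affymetrix mouse gene arrays, and the deposited values are log2 signals after robust multi-array averaging (RMA). All mice were female and on a C57BL/6 background, bought at 6 weeks of age and kept for 4 weeks. The db/db mice, obese for want of the signalling long isoform of the leptin receptor, received an isotype control antibody and room air (4 arrays), the isotype antibody and O3 (4 arrays), or an antibody against IL-17A and O3 (3 arrays). Wild-type (WT) mice were represented by 1 array, with the isotype antibody and O3, and no WT array in air was analysed here. Exposure was to 2 ppm O3 over 3 h, and RNA was studied 24 h after it ended. The labels do not say that the arrays of a group are separate animals, so the p-values measure only the spread between these samples.

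MMPs and ADAMTS proteases are zinc enzymes that cut the extracellular matrix and proteins held in it. Most are made as inactive proenzymes, MMPs being opened by plasmin, by other proteases or by each other and ADAMTS proteases by furin-like convertases, and TIMPs block the active site. In the lung they are known for the turnover of collagen, elastin and proteoglycans after injury, for the passage of leukocytes and for the release of growth factors from the cell surface.

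Part of the family lies in 1 block on mouse chromosome 9, where 10 MMP genes are neighbours in the order Mmp13, Mmp12, Mmp1b, Mmp3, Mmp1a, Mmp10, Mmp8, Mmp27, Mmp20 and Mmp7. The promoter windows of RefSeq (GRCm38.p6, from 250 bases before to 50 bases after the start) were searched for TGANTCA, the AP-1 element, which is the same on both strands, and for AGGAAG, the ETS (PEA3) core, on both strands. A window was found for 32 of the 46 genes. TGANTCA was in the window of 8 of the 10 block genes, of no other member with a window, and of 7.81% of all 32851 windows. AGGAAG was in a window of 15 of the 32 genes and in 35.4% of all windows. The TGANTCA match nearest the start of each of the 8 block genes is shown, because these genes share the pattern. Of those with values, Mmp3 alone was called after O3. The middle base is C in Mmp13, A in Mmp20 and G in the others. Capitals mark TGANTCA, each line reads in the direction of the gene, and the base before the start is -1.
Mmp13: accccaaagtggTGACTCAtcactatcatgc
Mmp12: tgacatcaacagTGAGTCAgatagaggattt
Mmp1b: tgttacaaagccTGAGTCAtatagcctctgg
Mmp3: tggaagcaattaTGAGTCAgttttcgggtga
Mmp1a: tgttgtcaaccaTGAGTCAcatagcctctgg
Mmp10: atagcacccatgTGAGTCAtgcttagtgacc
Mmp20: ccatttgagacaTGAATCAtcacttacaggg
Mmp7: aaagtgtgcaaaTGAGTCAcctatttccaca
The first base of the match lies at -35 in Mmp13, -44 in Mmp12, -93 in Mmp1b, -46 in Mmp3, -73 in Mmp1a, -63 in Mmp10, -95 in Mmp20 and -63 in Mmp7.

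The bases before the start are printed for Mmp3 and Timp1, the 2 genes called after O3, with TGANTCA and AGGAAG in capitals. The Mmp3 stretch is chr9:7445572-7445821 and the Timp1 stretch is chrX:20869916-20870165, both on the plus strand of GRCm38.p6, and the matches within them do not overlap. A match is a run of letters and was not tested as a binding site.
Mmp3: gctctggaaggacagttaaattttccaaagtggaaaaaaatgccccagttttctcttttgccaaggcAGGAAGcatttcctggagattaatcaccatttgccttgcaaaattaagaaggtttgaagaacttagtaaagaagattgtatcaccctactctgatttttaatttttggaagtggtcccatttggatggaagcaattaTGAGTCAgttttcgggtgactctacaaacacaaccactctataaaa
Timp1: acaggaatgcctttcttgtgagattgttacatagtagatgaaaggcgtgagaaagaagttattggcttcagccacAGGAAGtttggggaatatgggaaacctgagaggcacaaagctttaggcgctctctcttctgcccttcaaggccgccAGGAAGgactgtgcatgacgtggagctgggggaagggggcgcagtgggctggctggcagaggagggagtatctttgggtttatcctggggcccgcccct

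The arrays had median signals of 4.75 to 4.90, and both deposited tables held the same values. Sftpc, the surfactant protein C of type II alveolar cells, was at 11.40 or more in all 12 arrays. Anti-IL-17A replicate 1 stood apart, with a mean correlation of 0.947 with the other arrays against 0.973 to 0.982. Ucp1, the defining gene of brown fat, was at 10.12 or more in air replicate 3, isotype O3 replicate 4 and anti-IL-17A replicate 1 and at 5.08 or less in the other arrays. The leading differences are also given without the Ucp1-high arrays.

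The first comparison asked how O3 altered the family in obese lungs, in the isotype-treated db/db mice. Timp1, a secreted TIMP, and Mmp3, stromelysin 1, which cuts proteoglycans, fibronectin and laminin and opens other proMMPs, rose after O3, and no member was called lower. In the limma fit to all 12 arrays, with Benjamini-Hochberg adjustment over all genes, these were 2 of the 46 members called at an adjusted p under 0.05 (4.35%), against 1.06% of all genes (230 of 21759). Called higher genes made up 0.597% of all genes and called lower genes 0.46%. At an unadjusted p under 0.05 there were 12 members (26.1%, against 15.1% of all genes). Without regard to the test, the O3 arrays all lay above the air arrays for 11 members (23.9%, against 8.78% of all genes) and all below for 4 members (8.7%, against 6.65% of all genes). The median difference was 0.04 on the log2 scale over the 46 members and 0.0032 over all genes, and 31 of the 46 differences were above 0, against 50.8% of all genes. Differences below are log2 signal in O3 minus log2 signal in air, with their SE.

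Timp1 had the widest difference. In air its log2 signal was 7.93, 4.54, 4.90 and 4.80 in replicates 1 to 4, and after O3 it was 9.15, 8.81, 9.36 and 8.39. All 4 O3 arrays were above all 4 air arrays, and air replicate 1 was far above the other air arrays. The mean rose from 5.54 ± 1.60 (SD, n = 4) to 8.93 ± 0.42 (SD, n = 4), a difference of 3.38 ± 0.67 (10.4-fold, 95% confidence interval 1.91 to 4.86 on the log2 scale, limma adjusted p = 0.046). Without air replicate 1 the difference was 4.18 and its adjusted p 0.0060, and without any other single array of the 2 groups, or with all 3 Ucp1-high arrays left out, it was above the threshold (adjusted p = 0.082 to 0.15). The other TIMPs did not pass the test. Timp2, which also takes part in the activation of proMMP2, differed by 0.05 ± 0.10, Timp3, which is bound to the matrix, by -0.01 ± 0.11, and Timp4 by 0.31 ± 0.36. Timp2 lay between 9.88 and 10.30 and Timp3 between 10.90 and 11.14 over the 8 air and O3 arrays, while Timp4 ranged from 5.42 to 6.76 in air alone.

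Among the stromelysins, Mmp3 was at 6.63, 5.97, 6.02 and 6.35 in air and at 7.87, 7.6, 7.75 and 6.99 after O3. The groups did not overlap, and O3 replicate 4 was the lowest of its group. The mean rose from 6.24 ± 0.31 to 7.55 ± 0.39 (SD, n = 4 each), a difference of 1.31 ± 0.24 (2.48-fold, 95% confidence interval 0.77 to 1.84, limma adjusted p = 0.039). The exact two-sided permutation test gave p = 0.0286 for Mmp3 and for Timp1, the smallest that 4 arrays against 4 allow. Leaving out any single air or O3 array took the adjusted p of Mmp3 to between 0.076 and 0.14 in the fit with the remaining arrays, while the difference stayed between 1.20 and 1.5. Mmp10, stromelysin 2, read 3.59 to 3.84 in these 8 arrays. Mmp11, stromelysin 3, which is activated by furin inside the cell, differed by -0.21 ± 0.11.

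Mmp3 stood alone in the chromosome 9 block, where the air and O3 arrays of every other gene with values overlapped. Of the genes beside it, Mmp1b differed by 0.04 ± 0.08 and Mmp1a, an interstitial collagenase, by -0.03 ± 0.12. Mmp12, the macrophage elastase, differed by 0.16 ± 0.32 and Mmp13, collagenase 3, by 0.03 ± 0.11. Mmp1a, Mmp1b, Mmp10, Mmp13 and Mmp20 were among the 15 members with values that fell below the limit of a filter on the dimmest 40% of probe sets (means of 2.83 to 4.21), so small changes in them may not be measurable. Mmp27 differed by 0.57 ± 0.28 with overlapping arrays. Outside the block, Mmp23, which lacks the hemopexin domain of most MMPs, differed by 0.40 ± 0.19 and Mmp21 by 0.16 ± 0.10, both with overlap.

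**Figure D1:**
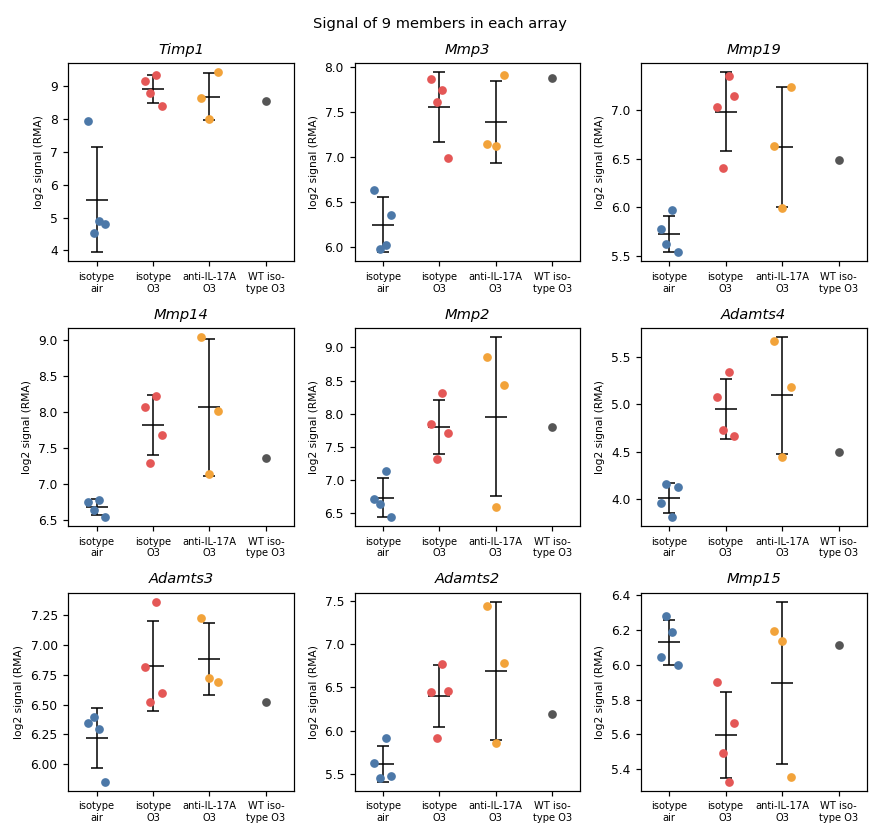
Log2 signal (RMA, vertical axes) of 9 members in the 4 groups (horizontal axes), with 1 point per array and the mean and SD as lines where a group had more than 1 array. For Timp1 and Mmp3 every O3 array is above every air array, air replicate 1 of Timp1 (7.93) lies far above the other air arrays, and Mmp15 is the panel in which the isotype O3 arrays lie below the air arrays.

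Beyond the called pair, 5 members had higher O3 arrays without overlap and differences between 0.78 and 1.26 that did not pass the test in the 12-array fit. Mmp19, which cuts basement membrane proteins, was nearest to the threshold. Its signal was 5.77, 5.62, 5.97 and 5.54 in air and 7.03, 6.41, 7.35 and 7.14 after O3, so that even the lowest O3 array was above the highest air array. The difference was 1.26 ± 0.26 (2.39-fold, limma adjusted p = 0.055).

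Mmp14 and Mmp2 are partners: Mmp14, a membrane-anchored MMP, activates proMMP2, the gelatinase A made by stromal cells. Mmp14 was at 6.76, 6.65, 6.78 and 6.55 in air and at 8.07, 7.29, 8.22 and 7.69 after O3 (difference 1.13 ± 0.34, adjusted p = 0.14). Mmp2 was at 6.72, 6.64, 7.14 and 6.45 in air and at 7.85, 7.32, 8.31 and 7.71 after O3 (difference 1.06 ± 0.42, adjusted p = 0.26). In both genes the highest O3 array was replicate 3 and the lowest was replicate 2. Mmp15, another membrane-anchored MMP, went the other way, from 6.04, 6.28, 6.19 and 6.00 in air to 5.90, 5.49, 5.33 and 5.66 after O3 (difference -0.53 ± 0.19, adjusted p = 0.20). The gap between the groups was small, with the lowest air array at 6.00 and the highest O3 array at 5.90. The other membrane-anchored MMPs with values overlapped between air and O3, at 0.00 ± 0.16 for Mmp16, -0.05 ± 0.11 for Mmp17 and -0.16 ± 0.17 for Mmp25.

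Of the ADAMTS proteases that cut the proteoglycans aggrecan and versican, Adamts4 had the widest difference. It was at 3.95, 4.15, 3.81 and 4.12 in air and at 5.07, 4.73, 5.35 and 4.66 after O3, with no overlap (difference 0.95 ± 0.24, adjusted p = 0.096). Adamts5, the other main aggrecanase, differed by 0.02 ± 0.34, and its highest signals were in the 3 Ucp1-high arrays (8.54 in air, 8.70 after O3 and 9.25 with anti-IL-17A, against at most 8.36 in the other 9 arrays). It was the only one of the 43 members whose 3 highest arrays were these 3, and the adipocyte marker list was also highest in each group there, at a mean of 6.90 in air, 6.37 after O3 and 6.98 with anti-IL-17A, where the part of fat tissue in the Adamts5 signal was not tested. Adamts9 (0.37 ± 0.20, adjusted p = 0.43) and Adamts15 (0.45 ± 0.25, adjusted p = 0.44) had higher O3 arrays without overlap. Adamts1 differed by 0.57 ± 0.24 and Adamts8 by 0.57 ± 0.38, both with overlap. A second probe set of Adamts8 differed by -0.28 ± 0.12, so the sign of that gene depended on the probe set. Adamts20 lay lower after O3 without overlap, by -0.17 ± 0.10 (adjusted p = 0.48) on a dim probe set.

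The procollagen N-propeptidases, which trim fibrillar procollagens so that fibrils can form, also lay higher. Adamts2 was at 5.62, 5.46, 5.91 and 5.48 in air and at 6.45, 5.92, 6.77 and 6.46 after O3. The groups were apart by only the distance between 5.91 and 5.92 (difference 0.78 ± 0.30, adjusted p = 0.24). Adamts3, which also cuts the lymphatic growth factor VEGF-C, was at 6.35, 6.4, 6.29 and 5.85 in air and at 6.81, 6.53, 7.37 and 6.60 after O3 (difference 0.60 ± 0.21, adjusted p = 0.19). Adamts14, the third of the group, differed by 0.03 ± 0.12.

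Several probe sets read Adamts3, Adamts9 and Adamts17, and they show how far a call on 1 probe set carries. All 16 probe sets of Adamts3 were higher after O3, by 0.11 to 0.80 with a median of 0.41, and 8 of them without overlap. All 6 of Adamts9 were higher, by 0.32 to 0.79, and 5 of them without overlap. For Adamts17 the chosen probe set was lower without overlap (-0.41 ± 0.19, adjusted p = 0.35), and so was 1 other of its 5 probe sets (-0.29), while 2 were higher by 0.10 and 0.03 with overlap. None of these probe sets was called. Probe sets of a gene share the RNA of the same arrays and are not replicates.

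**Figure D2:**
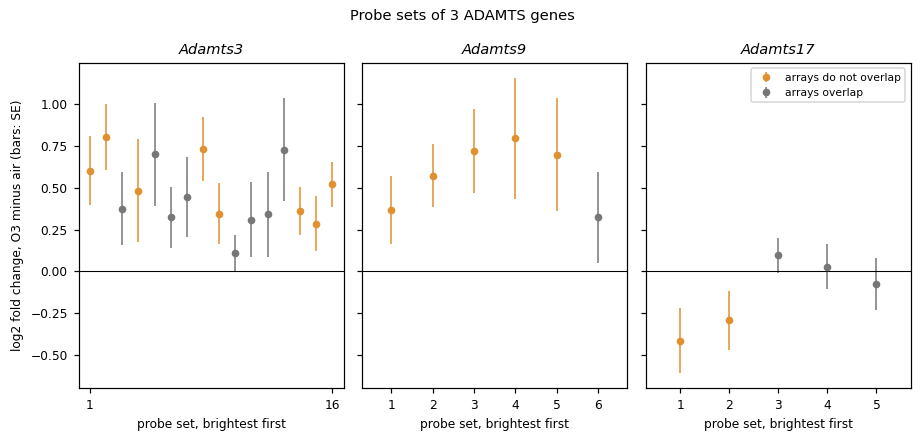
Log2 fold change of O3 minus air (vertical axis, bars SE) for each probe set of Adamts3 (16), Adamts9 (6) and Adamts17 (5), ordered along the horizontal axis from the highest to the lowest mean signal. Orange points mark probe sets whose air and O3 arrays do not overlap. All points of Adamts3 and Adamts9 are above 0, and those of Adamts17 lie on both sides.

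The remaining ADAMTS groups gave smaller values. Adamts12, which cuts cartilage oligomeric matrix protein, was higher after O3 without overlap (0.50 ± 0.17, adjusted p = 0.20), and Adamts7, of the same activity, differed by 0.03 ± 0.14. Adamts13, the protease of von Willebrand factor, was lower without overlap on a dim probe set (-0.24 ± 0.09, adjusted p = 0.26). Adamts6 and Adamts10, which bind fibrillin microfibrils, differed by 0.08 ± 0.23 and 0.06 ± 0.21. Of the less characterised proteases, Adamts16 differed by -0.11 ± 0.11, Adamts18 by 0.02 ± 0.09 and Adamts19 by 0.03 ± 0.09, all on dim probe sets. In all, the air and O3 arrays of 28 of the 43 members overlapped, and 21 of these differed by no more than 0.25 in either direction (-0.21 to 0.16, lowest adjusted p = 0.44).

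**Figure D3:**
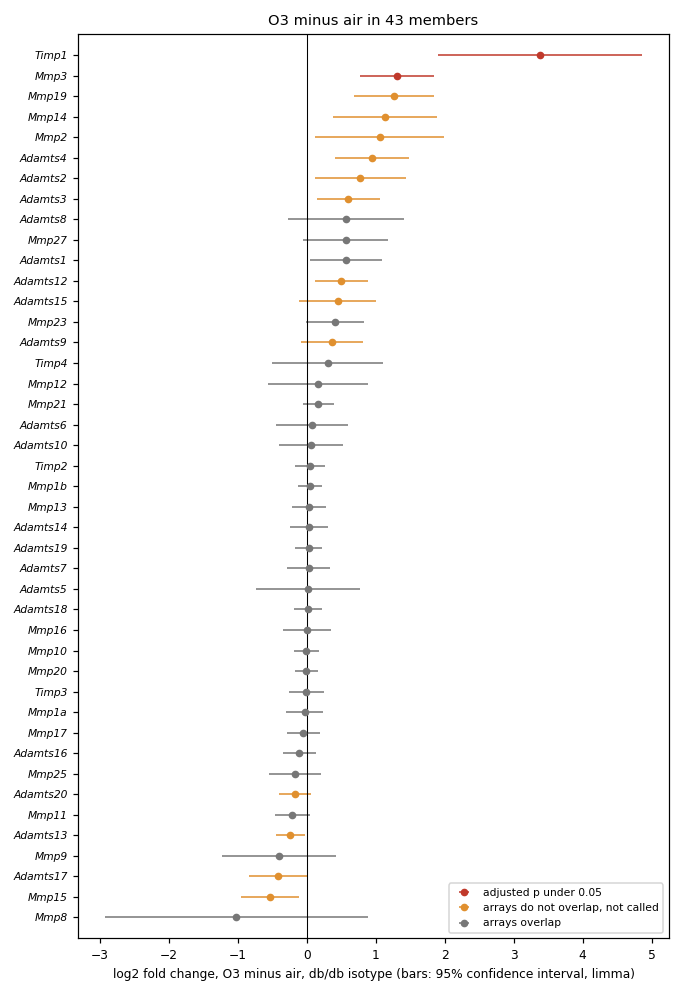
Log2 fold change of O3 minus air in isotype-treated db/db mice (horizontal axis) with its 95% confidence interval from limma, for the 43 members with values (vertical axis), ordered by size. Timp1 and Mmp3 are called, 13 other members have air and O3 arrays that do not overlap, and Mmp8 and Mmp9 have wide intervals that hold 0.

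Fitted to the 8 isotype air and O3 arrays alone, the same differences gave 8 members called higher (17.4%, against 4.89% of all genes) and 1 called lower (2.17%, against 2.96%). The higher members were Mmp19 (limma adjusted p = 0.0075), Mmp3 (0.0091), Mmp14 (0.0098), Adamts4 (0.010), Timp1 (0.021), Mmp2 (0.021), Adamts2 (0.033) and Adamts15 (0.045), and the lower one was Mmp15 (0.039). The call of most of these genes thus depends on whether the anti-IL-17A arrays, which had an SD of 0.95 for Mmp14 against 0.42 in the isotype O3 arrays, enter the estimate of the error. Without the 3 Ucp1-high arrays the differences were 1.29 for Mmp19, 1.21 for Mmp14, 1.22 for Mmp2, 0.98 for Adamts4 and 0.86 for Adamts2, none of them called (adjusted p = 0.12 to 0.21). In the fit of the 8 arrays Mmp3, Mmp14, Mmp19 and Adamts4 were called whichever of the 8 arrays was left out.

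Genes that activate, bind or inhibit these proteases, and marker genes of lung cells, were read beside them. Of 19 activators, receptors and other inhibitors, 3 were called higher (against 0.597% of all genes) and none lower (against 0.46%). Among them were Plau (1.24 ± 0.23, adjusted p = 0.042), urokinase, which makes plasmin, and Lcn2 (1.71 ± 0.33, adjusted p = 0.045), whose human counterpart binds MMP9. The list had a median difference of 0.48, against 0.0032 over all genes. No gene was called among 13 ADAM proteases, where the lowest p values belonged to Adam23 (0.95 ± 0.23), Adam12 (0.52 ± 0.15) and Adamdec1 (-1.0 ± 0.30), among 12 ADAMTS-like and astacin genes, with Pcolce2 (-0.31 ± 0.10), Adamtsl5 (0.18 ± 0.13) and Thsd4 (0.18 ± 0.13) first, or among 20 matrix substrates, led by Fbn1 (0.68 ± 0.20), Fn1 (0.47 ± 0.19) and Eln (0.55 ± 0.23).

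Markers of injured or transitional epithelium, club cells and ciliated cells moved between the same arrays as Timp1 and Mmp3. Of 10 markers of injured or transitional epithelium, Areg (1.53 ± 0.30, adjusted p = 0.046) and Hbegf (1.05 ± 0.21, adjusted p = 0.047) were called higher, against 0.597% of all genes. Both are ligands of the epidermal growth factor receptor. The list mean was 7.14 to 7.66 in air and 8.14 to 8.89 after O3. Of 8 club cell markers, 2 were called lower (Aldh1a1 and Scgb3a2, against 0.46% of all genes), with list means of 9.39 to 9.56 in air and 8.72 to 8.92 after O3. Of 9 ciliated cell markers, 2 were called lower (Dnahc9 and Tmem212, against 0.46% of all genes), with list means of 7.09 to 7.38 in air and 5.60 to 6.26 after O3. For fibroblasts, a usual source of Mmp2, Mmp3, Mmp14 and Timp1, 0 of 12 markers were called. Their list means overlapped (7.59 to 7.87 in air, 7.41 to 7.85 after O3). At an unadjusted p under 0.05, 0 of 12 were higher (against 8.67% of all genes) and 2 of 12 lower (against 6.47%). Smooth muscle and pericyte markers, also stromal, had 0 of 9 called and a median difference of 0.36. Their list means were 7.28 to 7.90 in air and 7.62 to 8.08 after O3. Of 8 markers of type I alveolar cells 0 were called, but the list means did not overlap (9.90 to 9.99 in air, 9.63 to 9.81 after O3). The part of these cell types in the changes of the proteases was not tested. In whole lung, fewer cells of a type and less RNA per cell cannot be told apart.

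Mmp8, Mmp9 and Mmp25, the collagenase, the gelatinase B and the membrane-anchored MMP that neutrophils carry, followed another order. Mmp8 was at 10.42, 6.99, 8.26 and 9.89 in air, at 7.80, 7.70, 7.93 and 8.05 after O3, at 6.47, 10.26 and 7.28 in anti-IL-17A replicates 1, 2 and 4, and at 9.72 in the WT array. Mmp9 was at 6.10, 4.50, 4.97 and 5.52 in air, at 5.11, 4.97, 4.86 and 4.54 after O3, at 5.32, 6.23 and 4.68 with anti-IL-17A, and at 6.35 in the WT array. Air replicates 1 and 4, anti-IL-17A replicate 2 and the WT array were the 4 highest for both genes, and the groups overlapped widely.

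The mean of 13 neutrophil markers, in which no member was counted, was also highest in these 4 arrays, at 7.72 in air replicate 1, 7.63 in WT, 7.49 in anti-IL-17A replicate 2 and 7.45 in air replicate 4, against 5.85 to 6.90 in the other arrays. Mmp8, Mmp9 and Mmp25 were the only 3 of the 43 members that had the same 4 highest arrays. The O3 minus air difference was -1.02 ± 0.86 for Mmp8, -0.40 ± 0.37 for Mmp9 and -0.16 ± 0.17 for Mmp25, smaller than or close to the error. The SD of Mmp8 was 1.57 in the air group and 0.15 in the isotype O3 group (n = 4 each). Of 15 neutrophil markers, Mmp8 and Mmp9 included, 1 was called higher after O3 (Lcn2, also made by epithelium, against 0.597% of all genes) and none lower (against 0.46%). The median difference of the list was -0.45. The part of neutrophil number in these signals was not tested.

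**Figure D4:**
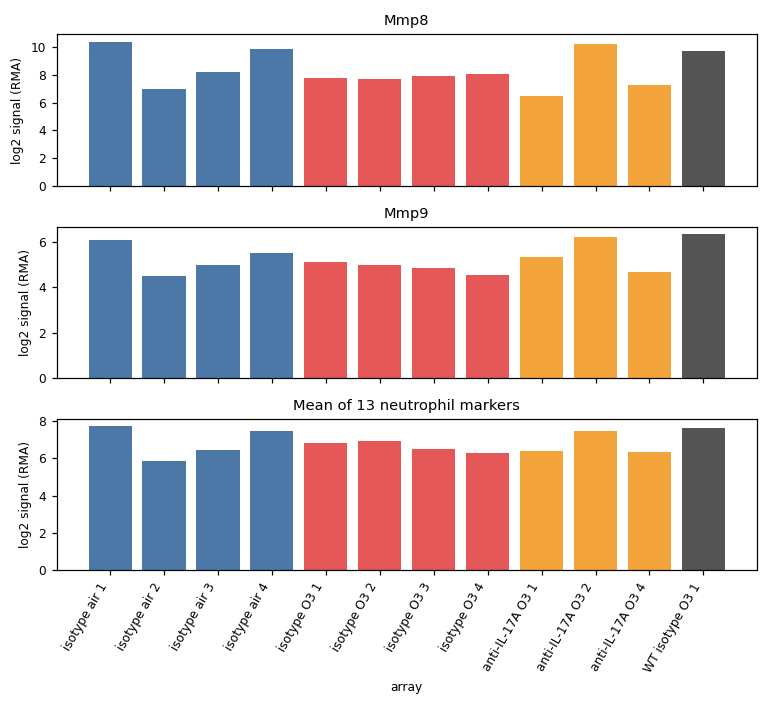
Log2 signal (RMA, vertical axes from 0) of Mmp8, of Mmp9 and of the mean of 13 neutrophil markers in each of the 12 arrays (horizontal axis). In each panel the tallest bars are air replicates 1 and 4, anti-IL-17A replicate 2 and the WT array.

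The second comparison asked whether blocking IL-17A, a cytokine of T cells and innate lymphoid cells, altered the family in O3-exposed db/db lungs. No member was called, and no gene of the whole table was (0% called in limma, 1002 of 21759 genes or 4.6% at an unadjusted p under 0.05, 1 member or 2.17%). That member was Mmp21, a gene of left-right patterning, which was lower on a dim probe set (-0.33 ± 0.11, adjusted p = 0.83), where the anti-IL-17A arrays at 3.89, 3.81 and 3.71 lay below the isotype O3 arrays at 4.27, 4.24, 4.09 and 3.93 (1 member lower without overlap, 2.17%, against 1.42% of all genes). Mmp11 was higher without overlap (0.25 ± 0.12, adjusted p = 0.83, and 0.18 without anti-IL-17A replicate 1), 1 member (2.17%) against 2.63% of all genes. Among the members with values, the next lowest p values belonged to Mmp1a (0.21 ± 0.13), Adamts16 (0.18 ± 0.11) and Mmp15 (0.30 ± 0.20), each with a limma adjusted p of 0.83.

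For the genes with the widest O3 differences, the anti-IL-17A arrays spread across the isotype O3 arrays. Timp1 was at 8.63, 8.0 and 9.43, and differed from isotype O3 by -0.24 (95% confidence interval -1.83 to 1.36). Mmp3 was at 7.14, 7.11 and 7.91 (difference -0.17, 95% confidence interval -0.74 to 0.41). Mmp19 was at 6.63, 6.00 and 7.23 (difference -0.37, 95% confidence interval -0.99 to 0.26). Replicate 2 was the lowest of the 3 for each gene, but for Mmp3 it was close to replicate 1 (7.11 and 7.14). The same array stood near air in 3 epithelial lists. Its mean was 7.04 for the ciliated cell markers, 7.66 for injured or transitional epithelium and 9.20 for club cells. In anti-IL-17A replicates 1 and 4 these means were 5.81 and 5.58, 9.04 and 8.66, and 8.64 and 8.68. Replicate 2 was also the lowest of the 3 for the smooth muscle and pericyte markers, at 7.17 against 8.09 in both others. The part of these cells in the protease signals of replicate 2 was not tested. Mmp14 was at 9.04, 7.14 and 8.02 and Mmp2 at 8.85, 6.59 and 8.44, again with replicate 2 lowest and replicate 1, the Ucp1-high array, highest. Without replicate 1 the difference from isotype O3 was -0.21 for Timp1, -0.04 for Mmp3 and -0.37 for Mmp19, and that of Mmp14 turned from 0.25 to -0.24 and that of Mmp2 from 0.16 to -0.28. The 3 intervals hold 0 as well as decreases of a large part of the O3 minus air difference, which this number of arrays could not tell from 0.

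**Figure D5:**
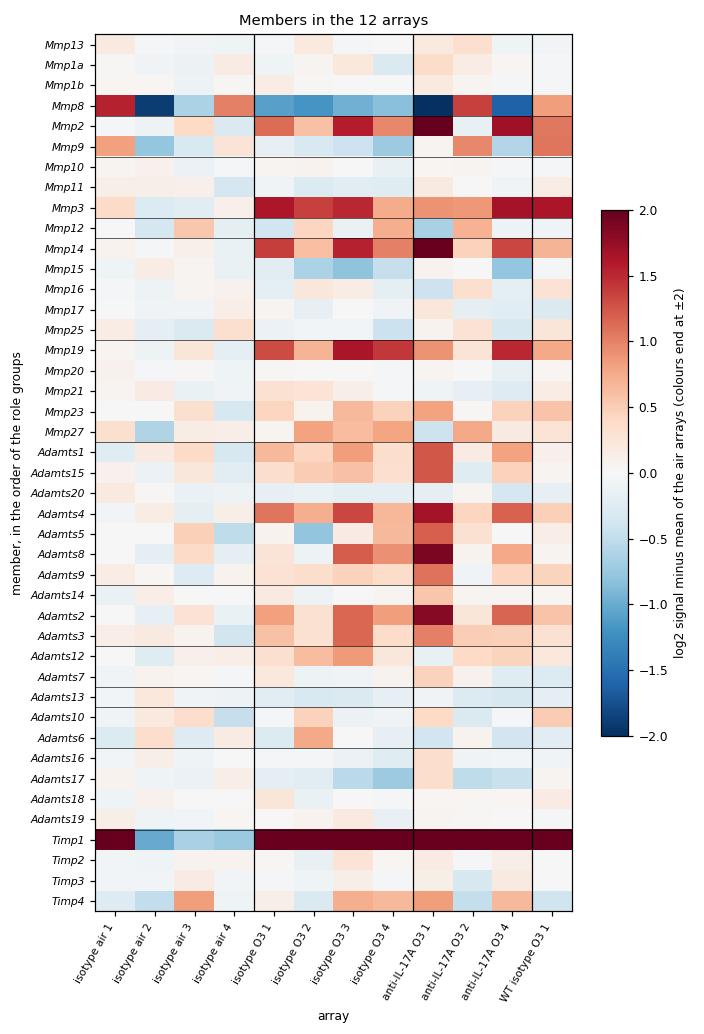
Log2 signal minus the mean of the air arrays (colour, which ends at 2 in both directions) for the 43 members (rows, in the order of their roles) in the 12 arrays (columns, with lines between groups). Timp1, Mmp3, Mmp19, Mmp14, Mmp2 and Adamts4 are red across the isotype O3 arrays, anti-IL-17A replicate 2 is paler than replicates 1 and 4 in many rows, and Mmp8 and Mmp9 change colour within groups.

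The anti-IL-17A O3 arrays were also set beside the air arrays, with the same air arrays as in the first comparison. No member and no gene was called in limma (0%), 10 members were higher at an unadjusted p under 0.05 (21.7%, against 10.8% of all genes) and 0 lower (against 5.81%). Mmp7, whose chosen probe set is assigned to another gene, was among these 10. All anti-IL-17A arrays lay above all air arrays for 6 members (13%, against 7.1% of all genes) and below for 0 (against 4.96%). The 6 were Timp1, Mmp3, Mmp14, Mmp19, Adamts4 and Adamts3. The difference from air was 3.15 ± 0.72 for Timp1 with anti-IL-17A and 3.38 with the isotype antibody. For Mmp3 it was 1.14 ± 0.26 against 1.31, for Mmp14 1.38 ± 0.37 against 1.13, for Adamts4 1.09 ± 0.26 against 0.95, for Adamts2 1.07 ± 0.32 against 0.78, and for Mmp19 0.89 ± 0.28 against 1.26. The adjusted p was 0.15 for Timp1 and Mmp3, 0.16 for Adamts4, 0.18 for Mmp14, 0.20 for Adamts2 and 0.21 for Mmp19. Without anti-IL-17A replicate 1, the Ucp1-high array, the differences were 0.90 for Mmp14, 0.80 for Adamts4 and 0.70 for Adamts2, below the isotype values, and 3.18 for Timp1, 1.27 for Mmp3 and 0.89 for Mmp19. Leaving out anti-IL-17A replicate 2 gave 11 members called, in a fit that called 12.7% of all genes, and leaving out air replicate 1 gave 1 (Timp1), the only gene called.

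The last comparison, of WT and db/db mice after O3 with the isotype antibody, had 1 WT array, which is assumed to vary like the others. No member was called and no gene (0% in limma, 713 genes or 3.28% at an unadjusted p under 0.05, 1 member or 2.17%). Mmp9 was that member, higher in WT by 1.48 ± 0.59 (adjusted p = 0.9998), and the WT array was among the 4 with the highest neutrophil marker mean. Next among the members with values came Mmp11 (0.35 ± 0.18), Mmp15 (0.51 ± 0.30), Adamts17 (0.47 ± 0.31) and Mmp25 (0.40 ± 0.27), each higher in WT with the same adjusted p of 0.9998. For Timp1 (8.55), Mmp3 (7.88) and Mmp19 (6.49) the WT signal after O3 was above all db/db air arrays, and whether it differed from WT in air was not analysed here.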

How the data were processed

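Per the submitters' notes, the tools were oligo, RMA and limma (versions not given in the sources used here). The authors deposited log2 signals of 35556 probe sets in 2 tables that hold the same values. The authors' own statistics (fold changes, p-values, t and B) in one table were not used. The highest-mean probe set of each symbol was kept, without a filter on dim signals, and limma 3.58.1 (R 4.3.3) was fitted to all 12 arrays with 1 mean per group, with Benjamini-Hochberg adjustment over 21759 genes and a threshold of 0.05. The script was tested on simulated data. Adjusted p values are given for members called, members whose air and O3 arrays do not overlap, and those with the smallest p (10 for O3 minus air, 5 for the other comparisons), and other members have a difference and SE. Members and gene lists were chosen with earlier results of these data known. Probe sets were checked against the platform annotation, through RefSeq synonyms. Alternatives were other scalings, filters, probe set rules, variance models, sets of arrays and thresholds, the replicate number as a block, and each array left out. RMA gives no detection call, and the number of arrays limits the precision. Of the genes called in the lists read beside the members, 1 is not reported here.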

Additional observations from a re-analysis of the deposited data

Results flagged for a closer look

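Of 86 combinations of a member and a group of 4 arrays, 8 had 1 array far from the other 3 (Dixon's test, where chance gives about 1 in 20). In air these were Timp1 in replicate 1, at 7.93 (others 4.54 to 4.90), Mmp13 in replicate 1, at 3.67 (others 3.39 to 3.44), Adamts13 in replicate 2, at 3.92 (others 3.61 to 3.66), Timp3 in replicate 3, at 11.14 (others 10.92 to 10.93), Mmp1b in replicate 3, at 2.71 (others 2.83 to 2.84), and Mmp11 in replicate 4, at 5.70 (others 6.13 to 6.16). After O3 these were Mmp13 at 3.68 (others 3.45 to 3.48) and Adamts10 at 6.56 (others 5.98 to 6.06), both in isotype replicate 2. Air replicate 1 was also the array with the highest mean of the neutrophil markers, at 7.72, and air replicate 3 was 1 of the 3 high in Ucp1. Air replicate 4, at 7.45 for the neutrophil markers, had Timp1 at 4.80. The part of neutrophils or fat in these outlying signals was not tested.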

How the results depend on the processing

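The direction was followed for members called, members whose air and O3 arrays do not overlap, and those with the smallest p in each comparison. None of these changed direction in that comparison under any alternative. Outside these pairs, Mmp14 and Mmp2 turned from higher to lower than isotype O3 without anti-IL-17A replicate 1. The adjusted p for O3 minus air ran from 0.0026 to 0.14 for Mmp3, under the threshold in 20 of 32 alternatives, and from 9.6e-04 to 0.15 for Timp1, under it in 15 of 32. For O3 minus air, 2 members were called (1.06% of all genes). The number, with the share of all genes called in the same fit, was 0 after a further quantile normalization (0.717%) or with array medians subtracted (0.133%), 1 with all probe sets tested (0.745% of probe sets), 12 with array weights (10.6%), 4 at an adjusted p under 0.1 (3.03%), 9 in the fit of the groups compared (7.84%) and 5 without anti-IL-17A replicate 1 (3.83%). It was 0 without the 3 Ucp1-high arrays (0.0046%) and 0 to 1 with each air or O3 array left out (0 to 0.0643%). Chosen after seeing the data, an unadjusted p under 0.05 gave 12 (15.1%), and the fit of the groups compared with each array left out gave 4, 5, 6, 7 or 8 (3.48% to 12.4%). For anti-IL-17A O3 minus air, none was called, against 3 with array weights (1.68%) and 0 to 11 with 1 array left out (0 to 12.7%). The other 2 comparisons gave 0 under every alternative run. Except for smaller sets of arrays, the cause was not tested.

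The replicate numbers showed no pairing of the air and isotype O3 arrays. Same-numbered ones deviated together with correlations of 0.11, 0.29, -0.20 and -0.41, and 1 of the 8 correlated best with its own number. Isotype O3 and anti-IL-17A arrays had correlations of 0.43, 0.45 and -0.13, and anti-IL-17A and air arrays -0.17, -0.16 and 0.12. For these groups arrays of unlike number were not compared, so pairing there was not settled. With the replicate block 1 member was called (Mmp19, 1.09% of all genes), and 7 with the block in the fit of the groups compared (5.25%). With WT, the block in that fit could not be fitted.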
